A study of Mus musculus with 8 samples.

Results

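The interleukins, the tumour necrosis factor (TNF) superfamily and their receptors were followed in the aging mouse hippocampus. Members were the genes with a probe whose symbol starts with Il and a digit, with Tnfsf or with Tnfrsf, or is Tnf. The array held 113 such genes, read by 138 probes, of 19751 genes that could be named. Group 3M was 4 samples from wild-type C57BL/6J mice of 3 months and group 29M was 4 from mice of 29 months. All were untreated, aged in their home cage, and the whole hippocampus was dissected by hand. Each sample's RNA, carrying the dye Cy3, filled 1 array of a 1-colour design.

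Interleukins and TNF ligands are signalling proteins by which immune cells, glia and vessels call and restrain inflammation. Most interleukin receptors pair a ligand-specific chain with a shared chain and signal through JAK kinases and STAT factors, while receptors of the IL-1, IL-17 and TNF families recruit adaptors that lead to NF-kB. Decoy receptors and antagonists bind a ligand or receptor without signalling. In the healthy brain the main producers of many of these proteins are microglia, astrocytes and oligodendrocytes.

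Values are generalized log2 spot intensities after variance stabilising normalization, called log2 signal here, and a change is 29M minus 3M, in log2 units, with its standard error (SE). A level of 1 probe cannot be set against that of another. A probe was called when its limma adjusted p was under 0.1 and its change at least 0.5, which is 1.414-fold. Where a gene had several probes, the brightest by mean signal stands for it. A gene counted as called, however, when any of its probes was called. The 8 arrays were spread over 3 slides, with 3M and 29M on each but not always in equal numbers. From 76.2% to 85.0% of spots per array were above background, and no spot was saturated. Array 3M-1, which had the lowest share, was the only one that the extraction software marked for evaluation, and in several members it stood apart from the other 3M arrays. Nothing in the labels says whether a sample is 1 animal, so the p-values measure the spread between these samples.

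Of the 113 genes, 86 had a probe above background on all 4 arrays of at least 1 group, 11 were not above background on any array and 16 lay between. In 29M 7 genes had a probe called higher (6.19% of the members), against 1.84% of all 19742 tested genes. One, Tnfrsf25, was called lower, which is 0.885% of the members against 0.892% of all genes. The genes called higher were Il33, Il1a, Tnfsf11, Tnfrsf11b, Il18r1, Tnfrsf9 and Il19. On the brightest probe alone 5 members were called higher, without Tnfrsf9 and Il19, a count that was not made over all genes. The median change was 0.06 over the members and 0.01 over all genes, and 73 of 113 members had a change above 0 (64.6%, against 52.9% of all genes). The groups did not overlap in 14 members that lay higher in 29M (12.4%, against 6.34% of all genes) and in 7 that lay lower (6.19%, against 5.21%). Among the 86 members above background alone, 56 had a change above 0 (65.1%, against 52.8% of the 16588 such genes), and the groups did not overlap in 11 that lay higher (12.8%, against 7.02%) and in 5 that lay lower (5.81%, against 5.65%). A gene could pass this filter through 1 group alone, as Il1a, Il6 and Tnfsf14 did through 29M and Il10 through 3M. The filtered shares are therefore not independent of the direction of change.

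**Figure D1:**
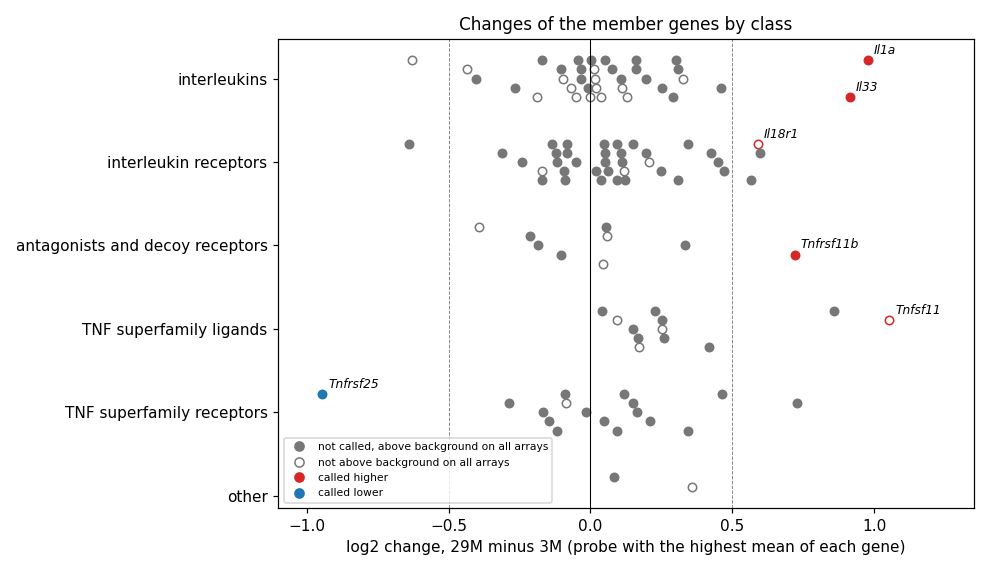
Change of each of the 113 member genes (x axis, log2 units, 29M minus 3M, probe with the highest mean) by class (y axis, points spread vertically only for legibility). Filled points were above background on all 4 arrays of at least 1 group, red and blue points were called, and dashed lines mark a change of 0.5. The 8 filled TNF superfamily ligands all lie above 0, and the lone blue point is Tnfrsf25.

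By class, 3 of 36 interleukins, 1 of 37 interleukin receptors and 1 of 9 antagonists and decoy receptors were called higher and none lower. Among the TNF superfamily 1 of 12 ligands was called higher, and of 17 receptors 1 was called higher and 1 lower. On the brightest probe alone 2 interleukins and 0 TNF receptors were called higher. All 8 TNF ligands above background had a change above 0 on their brightest probe, against 52.8% of all genes above background. Their median was 0.24, and none of these 8 was called. Tnf and Tnfsf14 counted as above background only through 29M. The other probe of the readthrough gene Tnfsfm13 gave -0.11. On slide 1 Tnf (-0.44), Tnfsf9 (-0.20) and Tnfsfm13 (-0.19) lay lower in 29M and the others higher. Among 6 TNF superfamily ligands under other symbols, which are not members, 3 had a change above 0, with a median of -0.04. Of the 33 interleukin receptors above background 21 had a change above 0, with a median of 0.05. Of the 24 genes with more than 1 probe, 9 had probes whose changes differed in sign.

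Promoter sequences, from 250 bases before to 50 after a start, were matched in RefSeq (GRCm38.p6) for 89 of the 113 genes, as 108 sequences. Windows of called members that hold a match are shown, because the study followed transcription factor families through such windows. Motifs of 5 families were searched on both strands: STAT (TTCNNNGAA), IRF (GAAANNGAA), AP-1 (TGANTCA), ETS (GAGGAAG) and the NF-kB consensus. Matches are in capitals. Il33 at chr19:29924863-29925162 (+ strand) holds 1 ETS match. Il1a at chr2:129309923-129310222 (- strand) holds an ETS and then an AP-1 match. Il18r1 at chr1:40465756-40466055 (+ strand) holds STAT matches and then an ETS match. Tnfrsf9 at chr4:150927749-150928048 (+ strand) holds in order STAT, NF-kB (overlapping matches) and AP-1. Il19 at chr1:130940066-130940365 (- strand) holds in order STAT, IRF and NF-kB. Tnfrsf25, the gene called lower, at chr4:152116093-152116392 (+ strand) holds ETS and then STAT.
Il33: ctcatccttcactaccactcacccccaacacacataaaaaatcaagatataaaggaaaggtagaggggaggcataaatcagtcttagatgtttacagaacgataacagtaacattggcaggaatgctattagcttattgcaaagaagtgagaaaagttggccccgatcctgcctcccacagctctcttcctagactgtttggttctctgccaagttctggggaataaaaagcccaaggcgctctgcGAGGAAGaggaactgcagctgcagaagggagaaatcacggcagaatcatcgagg
Il1a: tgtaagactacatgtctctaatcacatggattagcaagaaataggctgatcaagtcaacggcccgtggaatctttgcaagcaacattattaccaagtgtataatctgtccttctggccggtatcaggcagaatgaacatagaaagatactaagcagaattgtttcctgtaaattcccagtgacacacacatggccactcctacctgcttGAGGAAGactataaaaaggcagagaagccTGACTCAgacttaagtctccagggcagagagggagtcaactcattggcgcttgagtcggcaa
Il18r1: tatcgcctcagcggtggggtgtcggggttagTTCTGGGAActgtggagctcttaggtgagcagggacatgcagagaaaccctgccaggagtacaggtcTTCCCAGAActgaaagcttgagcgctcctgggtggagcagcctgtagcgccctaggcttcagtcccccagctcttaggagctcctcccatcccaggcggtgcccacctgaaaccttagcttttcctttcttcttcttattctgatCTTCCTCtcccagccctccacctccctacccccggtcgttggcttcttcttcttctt
Tnfrsf9: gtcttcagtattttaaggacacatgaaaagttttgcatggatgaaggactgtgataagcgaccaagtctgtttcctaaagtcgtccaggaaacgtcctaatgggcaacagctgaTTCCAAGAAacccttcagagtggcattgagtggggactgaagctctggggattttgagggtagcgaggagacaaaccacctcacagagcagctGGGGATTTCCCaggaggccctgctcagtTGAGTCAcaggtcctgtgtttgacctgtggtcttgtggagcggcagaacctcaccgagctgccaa
Il19: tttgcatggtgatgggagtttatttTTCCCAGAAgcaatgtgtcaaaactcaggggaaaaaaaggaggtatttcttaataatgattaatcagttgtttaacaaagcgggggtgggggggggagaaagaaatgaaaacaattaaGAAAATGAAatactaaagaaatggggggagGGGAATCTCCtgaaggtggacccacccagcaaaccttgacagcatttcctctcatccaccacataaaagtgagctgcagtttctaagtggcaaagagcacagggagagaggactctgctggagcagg
Tnfrsf25: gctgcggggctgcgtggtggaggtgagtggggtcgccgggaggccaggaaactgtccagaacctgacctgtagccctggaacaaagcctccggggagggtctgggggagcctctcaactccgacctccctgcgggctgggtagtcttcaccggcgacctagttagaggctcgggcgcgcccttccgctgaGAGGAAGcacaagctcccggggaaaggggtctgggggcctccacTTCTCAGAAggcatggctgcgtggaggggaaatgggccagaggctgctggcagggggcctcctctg

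The windows at the other starts of Il33, Il18r1, Tnfrsf9 and Tnfrsf25 and the Tnfsf11 window held none of the motifs and are not shown. No window was matched for Tnfrsf11b, so this called gene was not searched. AP-1 was matched in 17.6% of the member windows and in 7.81% of all 32851 windows, STAT in 15.7% and 8.3%, NF-kB in 8.33% and 4.51%, IRF in 11.1% and 8.56%, and ETS in 11.1% and 13.6%. Windows of 1 gene can overlap, and a match is only a run of letters.

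In the IL-1 family the alarmins Il33 and Il1a rose. Il33, a nuclear cytokine released from damaged cells and made in brain by oligodendrocytes and astrocytes, was at 14.00, 13.62, 13.61 and 13.74 in 3M and at 14.71, 14.71, 14.79 and 14.43 in 29M. The lowest 29M array thus lay above the highest 3M array, and the change of 0.91 (SE 0.12, adjusted p = 0.00768, limma) was 1.89-fold. It was higher within each slide, by 0.61, 1.08 and 1.03. Il1a, a cytokine that acts through the IL-1 receptor, read 5.99, 6.26, 6.09 and 6.12 in 3M and 7.39, 7.37, 6.65 and 6.97 in 29M. Again the groups did not overlap, with a change of 0.98 (SE 0.16, adjusted p = 0.0242, limma), and the probe was above background on 3 of 4 arrays of 3M and on all of 29M. Both genes stayed called in all 19 alternative settings. In whole hippocampus more cells of a type and more RNA per cell cannot be told apart.

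None of the receptors and partners of these cytokines was called. Il1b, the inducible IL-1 cytokine, was at 8.10, 7.16, 7.60 and 6.76 in 3M and at 7.44, 7.49, 7.78 and 7.55 in 29M, so the young arrays spanned the old ones, with 3M-1 at the top. Its change was 0.16 (adjusted p = 0.788), and 0.39 without 3M-1 (adjusted p = 0.269). On slide 1 it was -0.43, against 0.33 and 0.26 on the others. Il1r1, the signalling receptor, had a change of -0.12 (adjusted p = 0.712), the decoy receptor Il1r2 of 0.33 (adjusted p = 0.49) and Il1rl1, the receptor of IL-33, of 0.06 (adjusted p = 0.84). Other Il1rl1 probes, not above background on any array, gave -0.08 and 0.35. The shared chain Il1rap gave -0.08 on its brightest probe and 0.39 on the other (adjusted p = 0.171), so its probes differ in sign. Il1rn, the IL-1 receptor antagonist, read 5.85, 6.06, 5.89 and 5.94 in 3M and 5.53, 5.67, 5.42 and 5.55 in 29M. Its groups did not overlap, with a change of -0.39 (adjusted p = 0.0633) that lay under the size threshold, on a probe above background on 2 of 4 and 1 of 4 arrays.

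Il18r1, the binding chain of the IL-18 receptor, rose. It was at 5.86, 5.42, 5.35 and 5.33 in 3M and at 6.13, 6.02, 6.18 and 5.99 in 29M, and was above background on no 3M array and on 3 of 29M. The change was 0.59 (adjusted p = 0.0568). With 3M raised to the lowest signal above background and 29M kept as read, the rise was 1.39-fold. The call was lost without each array in turn except 3M-1 (adjusted p up to 0.161 over the settings), and with slide as a fixed block (adjusted p = 0.113). The other Il18r1 probe was not above background on any array and gave -0.06. The ligand Il18 was at 12.74 to 12.91 in 3M and 12.94 to 13.25 in 29M, without overlap, but its change of 0.25 was not called (adjusted p = 0.2), and neither was that of its binding protein Il18bp (0.05, adjusted p = 0.813). Il18rap, the second chain, was not above background on any array.

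**Figure D2:**
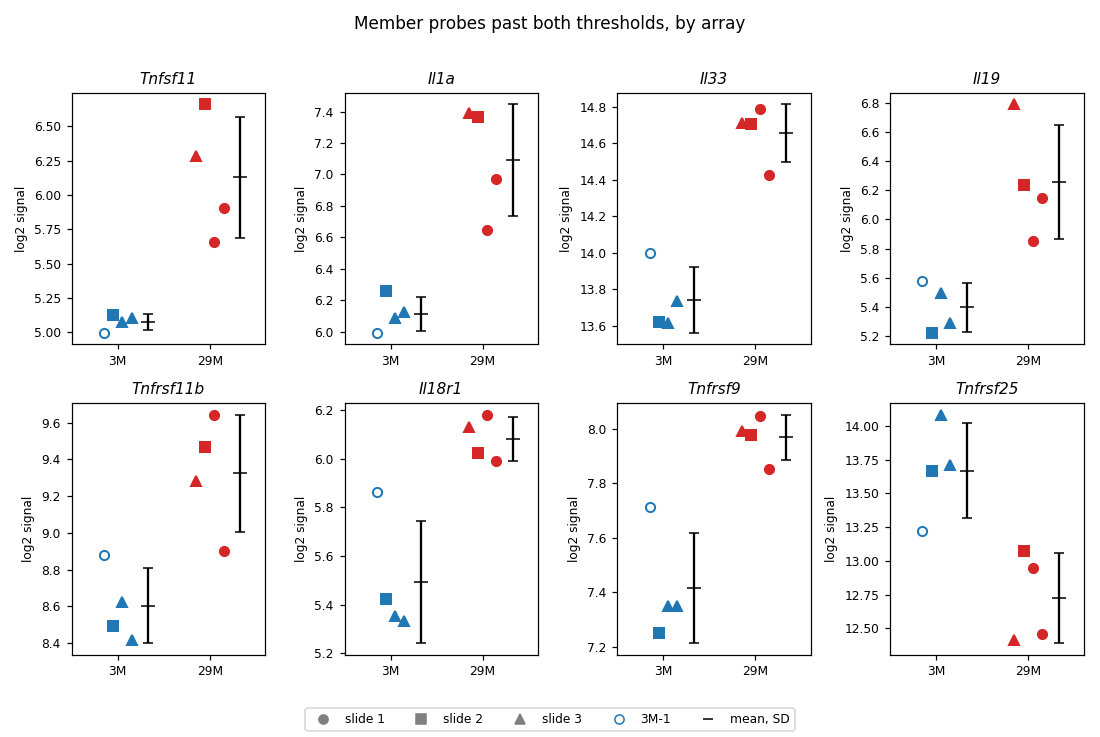
Log2 signal (y axis, a separate range in each panel) of the 8 called probes on the 4 arrays of 3M (blue) and the 4 of 29M (red). Marker shapes give the slide, the open circle is array 3M-1, and dashes with bars are mean and SD. In all 8 panels the groups do not overlap, and Tnfrsf25 is the panel in which 29M lies lower.

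Tnfsf11 and Tnfrsf11b, a ligand and its decoy, both rose. Tnfsf11 encodes RANKL, known from bone, and Tnfrsf11b encodes osteoprotegerin, the soluble decoy that binds it. Tnfsf11 read 4.998, 5.12, 5.07 and 5.11 in 3M and 6.29, 6.66, 5.66 and 5.91 in 29M. No 3M array and 2 of the 29M arrays were above background, and the change was 1.05 (SE 0.19, adjusted p = 0.0316). With 3M raised to the lowest signal above background and 29M kept as read, the rise was 1.44-fold. Tnfrsf11b was at 8.88, 8.49, 8.63 and 8.42 in 3M and at 9.28, 9.47, 9.64 and 8.90 in 29M, and 29M-4 lay just above 3M-1. The change was 0.72 (SE 0.16, adjusted p = 0.0697), and the call was lost without any of 3M-2, 3M-3, 3M-4, 29M-1, 29M-2 or 29M-3 (adjusted p up to 0.19) and with slide as a fixed block (adjusted p = 0.152). The Tnfsf11 call was lost without 29M-1 (adjusted p = 0.106). Tnfrsf11a, the signalling receptor RANK, had a change of 0.21 that was not called (adjusted p = 0.316).

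Tnfrsf25, the death receptor DR3, fell. It was at 13.22, 13.67, 14.08 and 13.71 in 3M and at 12.42, 13.07, 12.95 and 12.46 in 29M, and 3M-1 was the closest of the young arrays to the old ones. The change was -0.94 (SE 0.20, adjusted p = 0.0595), which is 1.92-fold. The call was lost without any of 3M-2, 3M-3, 3M-4, 29M-1 or 29M-4 (adjusted p up to 0.162) and with slide as a fixed block (-0.89, adjusted p = 0.125). Within each slide Tnfrsf25 lay lower in 29M, by between 0.52 and 1.48. Tnfsf15, its ligand TL1A, had a change of 0.17 (adjusted p = 0.45).

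Tnfrsf9, the costimulatory receptor 4-1BB of T cells, was read by a pair of probes that differed. The dimmer probe was at 7.71, 7.25, 7.35 and 7.35 in 3M and at 7.99, 7.98, 8.05 and 7.85 in 29M, with a change of 0.55 (adjusted p = 0.0467) whose call was lost without any of 3M-2, 3M-3, 3M-4, 29M-1 or 29M-2 (adjusted p up to 0.145) and with slide as a fixed block (adjusted p = 0.105). The brighter probe, at 11.85 to 12.70 in 3M and 11.91 to 12.08 in 29M, had a change of -0.29 (adjusted p = 0.408), so the gene has no single direction here. Its ligand Tnfsf9 had a change of 0.23 (adjusted p = 0.481), and of 0.39 without 3M-1 (adjusted p = 0.0541). Il19, a cytokine of the IL-10 family, also differed between probes in size. The called probe was above background on none of the 3M arrays and on 2 of 29M. It was at 5.58, 5.22, 5.49 and 5.29 in 3M and at 6.79, 6.23, 5.85 and 6.15 in 29M (adjusted p = 0.0568). With 3M raised to the lowest signal above background and 29M kept as read, the rise was 1.57-fold. The call was lost without any of 3M-2, 3M-3, 3M-4, 29M-2 or 29M-4 (adjusted p up to 0.16). The brighter probe had a change of 0.29 (adjusted p = 0.228).

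The results for Tnf, Tnfsf13b, Il10ra and Tnfrsf1b turned on 1 array. Tnf, the founding cytokine of the superfamily, was at 6.87, 5.86, 5.78 and 5.90 in 3M and at 6.62, 6.60, 6.32 and 6.54 in 29M. Array 3M-1 lay above every 29M array and the other three lay below them, and the change of 0.42 was not called (adjusted p = 0.383). Tnfsf13b encodes BAFF, a survival factor of B cells. It read 8.75, 7.55, 7.57 and 7.86 in 3M and 8.55, 8.91, 8.81 and 8.91 in 29M. Here 3M-1 lay within the 29M range, and the change of 0.86 was not called (adjusted p = 0.126). Il10ra, the IL-10 receptor chain, was at 10.46, 9.93, 9.61 and 9.87 in 3M and 10.42, 10.47, 10.40 and 10.30 in 29M. Tnfrsf1b, the TNF receptor TNFR2, was at 8.40, 7.85, 7.69 and 8.01 in 3M and 8.57, 8.49, 8.41 and 8.33 in 29M. Neither was called, at 0.43 (adjusted p = 0.219) and 0.46 (adjusted p = 0.157).

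Without array 3M-1 all 4 of these were called: Tnfsf13b at 1.13 (adjusted p = 0.00321), Tnf at 0.67 (adjusted p = 0.0104), Il10ra at 0.59 (adjusted p = 0.0198) and Tnfrsf1b at 0.60 (adjusted p = 0.0221). Il7r, the IL-7 receptor of lymphocytes (0.51, adjusted p = 0.0951), and Tnfrsf13c, the BAFF receptor (0.74, adjusted p = 0.0965), joined them. With the 7 genes called before, 13 members were called higher without 3M-1, while the share of all genes called higher went from 1.84% to 3.03%. On slide 1, which held 3M-1, Tnf was lower in 29M by 0.44, against changes of 0.74 and 0.78 on the other slides. Array 3M-1 was also low in Tnfrsf21, the death receptor DR6, at 10.04 against 11.44 to 11.74. Its change was 0.16 (adjusted p = 0.859) with all arrays and -0.24 (adjusted p = 0.473) without 3M-1, so its direction turned. The part of array quality in these differences was not tested.

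**Figure D3:**
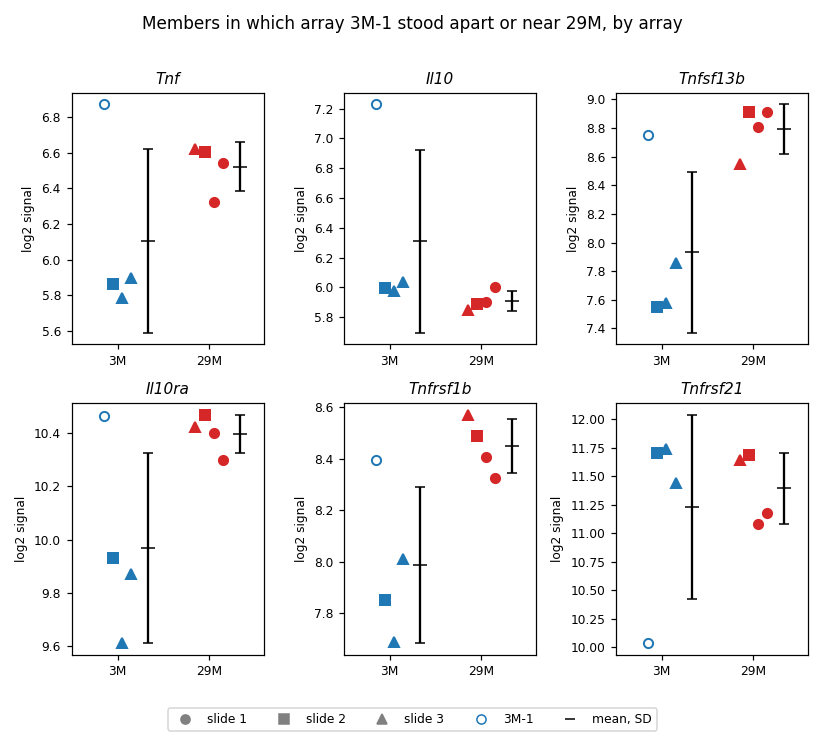
Log2 signal (y axis, a separate range in each panel) of 6 members chosen after their values were seen, on the arrays of 3M (blue) and 29M (red), with slides as marker shapes and mean and SD as dashes and bars. Array 3M-1 (open circle) lies with 29M in Tnfsf13b, Il10ra and Tnfrsf1b, above 29M in Tnf and Il10, and far below the others in Tnfrsf21.

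Tnfrsf13c with all 8 arrays was just outside the call, at 7.14, 7.16, 7.45 and 6.66 in 3M and 7.52, 7.79, 7.76 and 8.24 in 29M, with no overlap. The change was 0.73 (adjusted p = 0.1003), while the second probe gave -0.13. The other BAFF receptors were not called, Tnfrsf13b (TACI) at -0.12 and Tnfrsf17 (BCMA) at 0.34. Tnfrsf1a, the broadly expressed TNF receptor, gave 0.10 on its brightest probe and 0.42 on the other, which missed the size threshold (adjusted p = 0.0523).

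**Figure D4:**
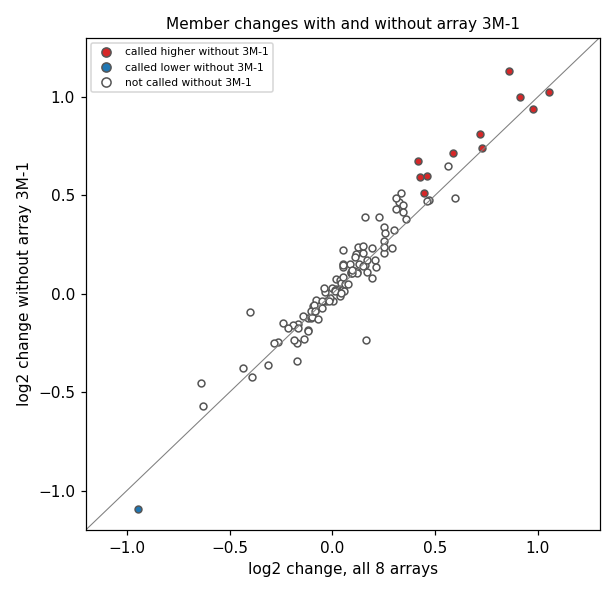
Change of each member with all 8 arrays (x axis) and without array 3M-1 (y axis), log2 units, probe with the highest mean. The line marks equal changes and filled points were called without 3M-1. Tnfsf13b, with 0.86 and 1.13, lies among the points farthest above the line.

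In the IL-6 axis Il6, an acute-phase cytokine, was at 6.19, 6.11, 5.97 and 6.39 in 3M and at 6.73, 6.50, 6.62 and 6.65 in 29M. The groups did not overlap, but the change of 0.46 (adjusted p = 0.0687) was under the size threshold. It was called with the 75th percentile scaling (1.07, adjusted p = 0.0696), with normalization of processed signals (0.71, adjusted p = 0.029) and without 3M-4 (0.53, adjusted p = 0.0535). The binding chain Il6ra had a change of -0.31 (adjusted p = 0.233) and the shared chain Il6st of 0.05 (adjusted p = 0.846). Il17rb, a receptor of IL-25, was at 7.12, 7.21, 7.10 and 7.01 in 3M and 7.41, 7.61, 7.55 and 7.75 in 29M, and its change of 0.47 (adjusted p = 0.048) also missed the size threshold. The other Il17rb probe, above background on 1 array of each group, gave 0.03. Il17re, the receptor of IL-17C, had a change of 0.56 (adjusted p = 0.177) without overlap. Il13ra1 had a change of 0.60 (adjusted p = 0.141), which was called with slide as a fixed block (0.67, adjusted p = 0.0422). Il10, a restraining cytokine, had a change of -0.40 (adjusted p = 0.466) with 3M-1 at 7.23 and the other 3M arrays at 5.98 to 6.03, and the change was -0.10 without 3M-1.

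Among the remaining bright interleukins, Il34, a ligand of the microglial receptor CSF1R, had a change of 0.19, Il16 of -0.17, Il12a, a subunit of IL-12, of 0.05, Il17d of -0.03 and Il15 of 0.30, all with adjusted p of 0.193 or more. Tnfrsf19, a receptor of neural progenitors, was tight in both groups at 14.00 to 14.03 and 13.78 to 13.91, and its change of -0.17 was not called (adjusted p = 0.266). The other Tnfrsf19 probe gave 0.11.

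Of the interleukin receptors not called, Il5ra, the IL-5 receptor chain of eosinophils and B cells, had the lowest change. It was at 10.63, 10.04, 10.01 and 9.62 in 3M and at 9.36, 9.30, 9.74 and 9.33 in 29M, so that only 3M-4 and 29M-3 overlapped, with a change of -0.64 (adjusted p = 0.155). Some other chains lay close to 0, with 0.09 for Il2rg, the common gamma chain, -0.05 for Il4ra, 0.05 for Il3ra and 0.12 for Il10rb. Il11ra1 was at 0.02 and Il17ra at 0.09. Shared chains did not all lie there, since Il2rb had a change of 0.31, which was not called. Il1rapl1, a synaptic member of the IL-1 receptor family, gave 0.19 on each of its probes (adjusted p = 0.573 on the brighter). Il15ra gave -0.17 and 0.16 on its probes, and Il21r 0.25 (adjusted p = 0.434). Il27, a cytokine of the IL-12 family, was at 10.12 to 10.37 in 3M and 9.83 to 10.09 in 29M without overlap, and its change of -0.27 was not called (adjusted p = 0.197).

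Other TNF ligands above background were Tnfsf10 (TRAIL), with a change of 0.25, Tnfsf12 (TWEAK) with 0.04 and Tnfsf14 (LIGHT) with 0.26, the last without overlap between groups but not called (adjusted p = 0.205). Tnfsf13 (APRIL) was read only through the readthrough gene Tnfsfm13, at 0.15 (adjusted p = 0.72) on its brightest probe and -0.11 on the other. Tnfsf8, the CD30 ligand, was dim, above background on 1 array of each group. Tnfrsf12a, the TWEAK receptor, had a change of 0.12 and Tnfrsf14, the LIGHT receptor HVEM, of -0.02. The decoy receptors Tnfrsf22 and Tnfrsf23 lay lower in 29M without overlap, at -0.18 (adjusted p = 0.326) and -0.21 (adjusted p = 0.234). The genes without an array above background on their brightest probe were Il1f5, Il1f6, Il1f8, Il1f9, Il9, Il18rap, Il20, Il23r, Il31, Tnfsf4 and Tnfsf18. None of these is described singly.

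Genes around these pathways were read from lists. Over all tested genes 1.84% were called higher and 0.892% lower. Of 18 cytokines and receptors that share chains with interleukins 3 were called higher, Osmr (0.82, the oncostatin M receptor), Csf2rb (0.74, the shared beta chain) and Csf1 (0.53, a growth factor of microglia), and 1 lower, Cntfr (-2.08, the CNTF receptor). Of 25 JAK, STAT and SOCS genes Socs3, a feedback inhibitor of the IL-6 pathway, was called higher (1.17, adjusted p = 0.0151). Of 10 inflammasome genes Casp1, which matures IL-1 beta and IL-18, was called higher (0.98, adjusted p = 0.0718). None of 25 adaptors and kinases, 19 NF-kB genes, 6 TNF ligands and 8 TNF receptors under other symbols was called, and their medians lay between -0.04 and 0.16. Nfkbie, an NF-kB inhibitor, had 0.40 (adjusted p = 0.0507) and Birc3 0.49 (adjusted p = 0.064).

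Markers of cell types were read from lists in the same way, beside the same shares of all genes called (1.84% higher and 0.892% lower). Of 10 microglial markers 2 were called higher (Tyrobp at 0.80 and Trem2 at 0.65), and 9 had a change above 0, against 52.9% of all genes, with a median of 0.35. The mean level of the list, centred on each gene, was -0.31 to 0.04 in 3M and -0.03 to 0.29 in 29M. Of 8 T cell markers Cd3d (0.96), Cd8a (0.71) and Cd2 (0.65) were called higher. Not called were Cd3g (0.24), Cd3e (0.07), Cd5 (0.06), Cd4 (-0.02) and Lck (-0.12). Other probes gave -0.17 for Cd8a and 0.20 for Cd2. The list ranged from -0.21 to -0.04 in 3M and from 0.01 to 0.23 in 29M. Cd3g was above background on 1 array. Of 6 astrocyte markers Gfap was called higher (0.71), while 3 of 6 had a change above 0 (Slc1a2 was at -0.22, Aldoc at -0.19 and Gja1 at -0.06), the median was 0.01 and the list lay at -0.10 to 0.001 in 3M and -0.04 to 0.15 in 29M. Of 5 oligodendrocyte markers none was called and all 5 had a change above 0 (median 0.17), and the list lay at -0.17 to 0.06 in 3M and 0.03 to 0.16 in 29M. No B cell, neuronal, endothelial, choroid plexus or red blood cell marker was called. All 5 endothelial markers had a change above 0 (median 0.11), and 0 of 3 red blood cell markers did. The B cell list lay at -0.17 to 0.31 in 3M and -0.12 to 0.15 in 29M, with its marker Ms4a1 above background on 2 arrays. The part of these markers in the results was not tested.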

How the data were processed

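RNA of 4 3M and 4 29M samples was measured, with groups and replicate numbers from the sample titles. The authors deposited scanner intensities on a linear scale, per the file headers from Agilent Feature Extraction 10.7.3.1, not normalized between arrays. The mean spot intensity planned as input was replaced by the median intensity. The table of the whole series held local background and was not used. Control and outlier spots were left out, and variance stabilising normalization (own implementation, quantile 0.9, 7 iterations) was applied in R 4.3.3, followed by limma 3.58.1 with eBayes over 39408 probes and Benjamini-Hochberg adjustment. This scale shrinks changes of dim probes. Probes were named through RefSeq accessions (26055 of 39429). The IRF motif searched is a shortened form, adopted after a longer form had been searched. Where no array of 1 group was above background, that group was raised to the lowest signal above background for the fold. Arrays of the other group entered as read, also where not above background, so this fold is not a strict bound. On simulated data of this comparison (39098 probes, 200 changed) 78.6% of log2 changes of 1 and 95.7% of those of 1.5 were recovered, and 8.29% of calls were false. The changed probes were all above background, and the noise was independent, without slide effects or an array that stood apart. These rates therefore do not cover dim probes such as those of Tnfsf11, Il18r1 and Il19, or results that turn on array 3M-1. Members and lists were chosen with earlier results of these data known. Named members were those called, bright ones without overlap of groups, and a set of main cytokines and receptors. Alternatives changed the normalization, filters, slide or replicate blocks, weights and threshold, or left out 1 array. The number of arrays limits the precision.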

Additional observations from a re-analysis of the deposited data

Results flagged for a closer look

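In 5 of 106 groups of 4 values 1 array lay far from the other three, where chance gives 5.3. In 3M this was array 3M-1 for Il10 (gap over range 0.955, 7.23 against 5.98 to 6.03) and Tnf (0.893, 6.87 against 5.78 to 5.90), and 3M-3 for Il17re (0.838, 9.12 against 9.88 to 10.03). In 29M it was 29M-2 for Il17re (0.834, 10.19 against 10.35 to 10.38) and 29M-1 for Tnfsf9 (0.904, 7.84 against 8.01 to 8.03).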

How the results depend on the processing

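Il33 and Il1a were called in all 19 settings and Tnfsf11 in 17 of 18, all but the one without 29M-1 (adjusted p = 0.106). Il19 was called in 12 of 18, Tnfrsf25 in 11 of 19, Tnfrsf9 in 9 of 19, Tnfrsf11b in 8 of 19 and Il18r1 in 6 of 18. None of these changes turned in direction. The count of 7 genes higher became 14 with array weights, 4 with the replicate block, 4 at an adjusted p under 0.05 and 5 with slide as a fixed block, while the genes called higher over the whole array went from 364 to 614, 195, 219 and 273. With the brightest probe only, the count of members higher was 5. The count of 1 gene lower became 0 with the 75th percentile scaling, 0 with slide as a fixed block and 0 at an adjusted p under 0.05, and 2 with normalization of processed signals and 2 with array weights. The genes called lower over the whole array went from 176 to 121, 153, 105, 146 and 367 in these settings. Leaving out 1 array in turn gave 3 to 13 higher and 0 to 2 lower. It was 13 higher without 3M-1 (596 over the whole array), 3 without 3M-2 (194), 3 without 3M-3 (222), 4 without 3M-4 (267), 4 without 29M-1 (184) and 3 without 29M-2 (201). The lower count was 2 without 29M-3 (238 over the whole array), and 0 without 3M-2 (81), 3M-3 (147), 29M-1 (87) or 29M-4 (98). The cause was not tested. Deviations of same-numbered samples correlated at -0.24, 0.21, -0.23 and 0.07, and those of other pairs at -0.32 to 0.40. Same-numbered samples mostly lay on different slides, so these values cannot decide whether the numbers pair the samples. Signal near background limits Tnfsf11, Il18r1 and Il19, whose folds depend on the level taken for 3M.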
